A study of Caenorhabditis elegans with 6 samples.

Results

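The genes described here decide whether germ cells of the Caenorhabditis elegans hermaphrodite become sperm or oocytes. They are tra-1, tra-2, fem-1, fem-2, fem-3, fog-1, fog-2, fog-3, gld-1 and mog-1, taken by name, and all 10 were found by the sequence names or accessions that the array files give to their probes. They are 10 of 20439 named genes on the array and are reported by 25 of its 43603 probes. Transcripts were measured in total RNA of whole young adults that had not begun to reproduce. Strain RB1035, a flcn-1 mutant backcrossed 8 times to WTN2 per the series' design text, was compared with WTN2, labelled wild type, with 3 arrays per strain described as biological triplicates. Both strains were grown on NGM agar with OP50 bacteria and synchronised by egg preparation. In humans the counterpart of flcn-1 is folliculin, a tumour suppressor. RB1035 is a single mutant strain, and the labels do not give the lesion of its allele.

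A hermaphrodite makes a limited stock of sperm as a larva and then switches to oocytes for the rest of its adult life. In the germ line the receptor TRA-2 holds back the FEM proteins, which otherwise remove the transcription factor TRA-1 and allow sperm fate. Spermatogenesis begins because FOG-2 and GLD-1 lower TRA-2 translation, and it ends when RNA-binding proteins and the MOG splicing factors silence fem-3, while FOG-1 and FOG-3 stand at the end of the pathway as the direct promoters of sperm fate. Much of this control acts on translation and on protein stability, which transcript levels do not report.

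Levels are given as the log2 of the processed spot signal minus the 75th percentile of the same array, so that 0 is a signal equal to that percentile. Differences are flcn-1 mutant minus wild type on that log2 scale, where 1 unit is 2-fold. A gene is represented by its brightest probe, and levels of different genes are not compared, since each probe has its own brightness. The arrays lay on 2 slides: slide 1 held mutant 1 and wild type 1, and slide 2 held mutants 2 and 3 and wild types 2 and 3. On each array 68.1% to 73.1% of probes had a signal well above background, and levels of tested features correlated between arrays at r = 0.941 to 0.980. Mutant 1 was closer to the wild types than to the other mutants, as it correlated at 0.967 and 0.973 with mutants 2 and 3, against 0.979, 0.980 and 0.976 with wild types 1, 2 and 3. Copies of a probe varied more on mutants 2 and 3 (median coefficients of variation of 22.4% and 20.9%) than on the other 4 arrays (8.19% to 10.9%). The targeted gene flcn-1 read -0.11, 0.37 and 0.49 on mutants 1, 2 and 3, against 0.73, 0.16 and 0.20 on wild types 1, 2 and 3, and its difference was -0.11 (limma adjusted p = 0.901). Whether its probe lies inside the lesion is not given, so this does not check the labels. The number of arrays limits the precision of every value below.

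All 10 genes were well above background on all 6 arrays by their brightest probe, and so were their other 15 probes. By limma, with adjusted p-values taken over 19822 features, 0 of the 10 changed between the strains at an adjusted p of 0.05, against 0.101% of all features tested (20 features). The lowest adjusted p among them was 0.65. Failing this test does not show a gene to be unchanged, as the procedure called 0.597% of simulated 2-fold changes. At an unadjusted p of 0.05 limma gave 1 of 10, fog-3, against 7.23% of all features. The strains' arrays did not overlap for that gene either, the single such case of 10, against 12.0% of all features for both directions and 6.74% for arrays of the mutant below those of the wild type. Of the 10 genes 7 were higher and 3 lower in the mutant, against 50.3% and 49.7% of all features. With normexp background correction 6 were higher, against 65.7% of all features under that setting. Their median difference was 0.16, against 0.00 over all features. It was -0.02 without mutant 3, 0.00 without wild type 2 and 0.00 without both mutant 2 and mutant 3, with 5 genes higher and 5 lower in each case, and it was 0.09 without mutant 2, 0.10 without wild type 3 and 0.24 without wild type 1. The median size of a difference regardless of sign was 0.29, against 0.33 over all features. The typical size of a difference in these genes was thus no greater than that over all features.

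**Figure D1:**
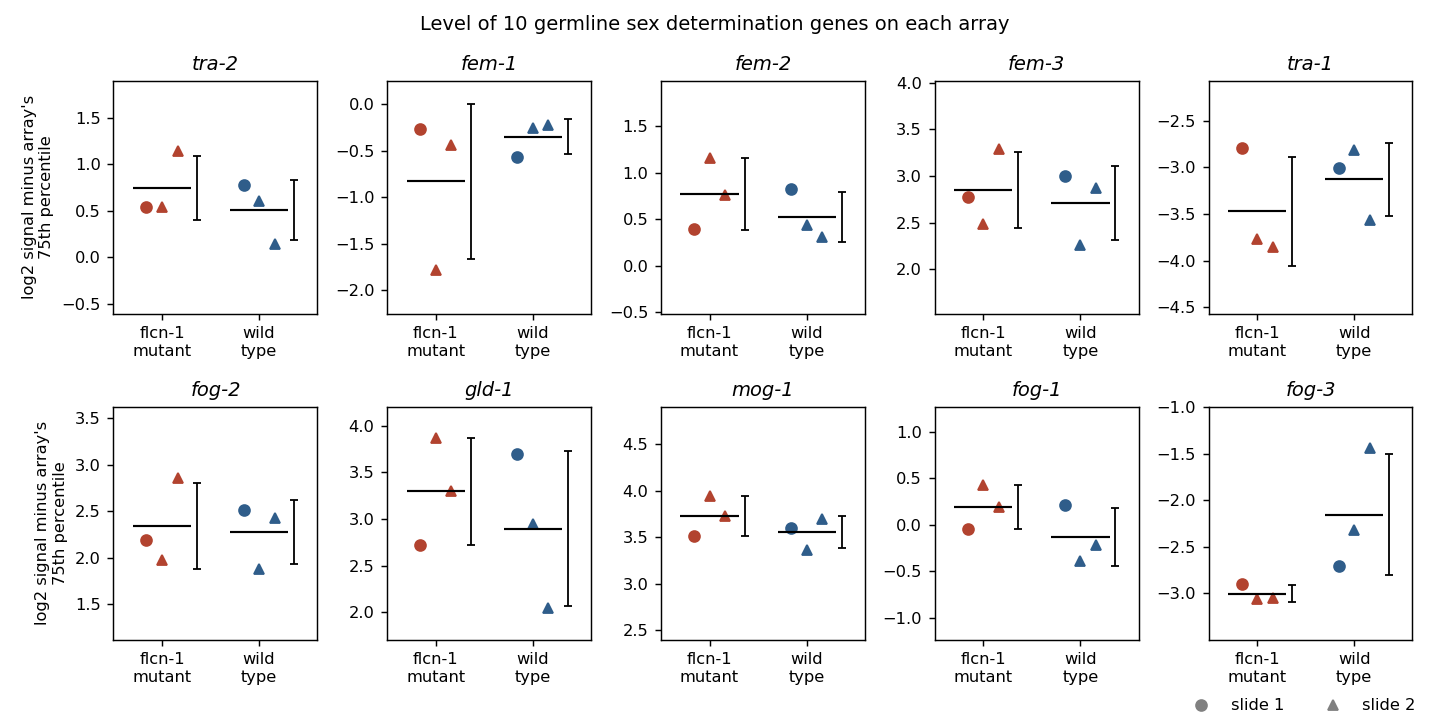
Log2 level of each of the 10 genes (y axis, processed signal relative to the array's 75th percentile) on every array, flcn-1 mutant left and wild type right; circles are slide 1 and triangles slide 2, the line is the mean and the bar 1 SD (n = 3 each). Each panel spans the same number of log2 units, and in all panels but fog-3 the points of the strains overlap.

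The receptor gene tra-2, which promotes oocyte fate, is first in the order of action. Its brightest probe read 0.54, 0.54 and 1.14 on mutants 1, 2 and 3, against 0.77, 0.60 and 0.14 on wild types 1, 2 and 3. The highest array was a mutant and the lowest a wild type, but mutants 1 and 2 lay below wild types 1 and 2. The difference of tra-2 was 0.24 ± 0.31 (SE), with a 95% confidence interval from -0.47 to 0.94 (limma adjusted p = 0.786). That probe is annotated to transcript C15F1.3a, and a second probe, annotated to transcript C15F1.3b, differed by -0.04. Direction thus depended on the probe, and both values lay within the spread of the arrays.

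The FEM proteins act together to bring about loss of TRA-1 protein. FEM-1 carries ankyrin repeats and pairs TRA-1 with a CUL-2 ubiquitin ligase, FEM-2 is a phosphatase, and FEM-3 binds both the complex and TRA-2. Levels of fem-1 were -0.26, -1.79 and -0.44 on mutants 1, 2 and 3, against -0.57, -0.26 and -0.22 on wild types 1, 2 and 3. Mutant 2 stood more than 1 log2 unit below every other array. The difference of fem-1 was -0.48 ± 0.42 (SE; 95% interval -1.44 to 0.48, limma adjusted p = 0.703), and without mutant 2 it was 0.00019. A second, dimmer fem-1 probe differed by 0.21 and was highest on mutant 2 (-2.96, against -3.48 to -3.14 on the other arrays), so the probes disagreed on that array.

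For fem-2 the readings were 0.39, 1.16 and 0.76 on mutants 1, 2 and 3, against 0.82, 0.43 and 0.31 on wild types 1, 2 and 3. Mutant 1 lay among the wild types and wild type 1 among the mutants. The difference of fem-2 was 0.25 ± 0.31 (SE; 95% interval -0.45 to 0.95, limma adjusted p = 0.777). The single probe of fem-3 read 2.78, 2.48 and 3.29 on the mutant arrays in the same order, against 3.00, 2.26 and 2.87 on the wild type arrays. The strains overlapped throughout, and the difference of fem-3 was 0.14 ± 0.33 (SE; 95% interval -0.62 to 0.90, limma adjusted p = 0.887), which turned to -0.050 with normexp. By the brightest probes, a change of 2-fold or more in either direction lay outside the intervals of fem-2 and fem-3. It likewise lay outside those of tra-2, fog-2, mog-1 and fog-1. For fog-1 this held for the brightest probe only, as the intervals of its other probes reached 1.16 and 1.26.

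The transcription factor TRA-1, a zinc finger protein of the Gli family, represses fog-1, fog-3 and male genes of the soma. Its gene had dim probes. The brighter one, annotated to Y47D3A.6b, read -2.79, -3.77 and -3.85 on mutants 1, 2 and 3, against -3.002, -2.81 and -3.57 on wild types 1, 2 and 3. Mutants 2 and 3 were lowest and mutant 1 highest of the 6. The difference of tra-1 was -0.34 ± 0.37 (SE; 95% interval -1.20 to 0.51, limma adjusted p = 0.751), and with normexp background correction it turned to 0.39. The dimmer probe, annotated to Y47D3A.6a, differed by 0.21 and read -5.52 on wild type 3, against -4.23 to -2.79 on the other 5 arrays.

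Translational control of tra-2 in the hermaphrodite rests on FOG-2, an F-box protein, and on GLD-1, a KH-domain protein that binds the tra-2 messenger. By its brightest probe fog-2 stood at 2.19, 1.98 and 2.86 on mutants 1, 2 and 3, against 2.52, 1.89 and 2.43 on wild types 1, 2 and 3. The strains overlapped, with a difference of 0.06 ± 0.33 (SE; 95% interval -0.70 to 0.83, limma adjusted p = 0.949), which turned to -0.20 with normexp. The other 2 probes of fog-2 differed by -0.11 and -0.08. The gene fog-2 has a near copy, ftr-1, which is its neighbour on chromosome V. The single ftr-1 probe differed by -0.11 (limma adjusted p = 0.895 by gene) and followed one of the fog-2 probes, A_12_P134216, closely from array to array (Pearson r of 0.968 over the 6 arrays, a description only). The brightest fog-2 probe did not follow it in this way (r of -0.513). Whether A_12_P134216 reports fog-2 alone was not tested, so the fog-2 values by that probe are uncertain.

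The widest spread among the 10 genes belonged to gld-1. Its brightest probe read 2.73, 3.87 and 3.30 on mutants 1, 2 and 3, against 3.70, 2.95 and 2.04 on wild types 1, 2 and 3. The wild type arrays alone covered a range of more than 1.5 log2 units, and the strains overlapped. The difference of gld-1 was 0.40 ± 0.47 (SE; 95% interval -0.68 to 1.47, limma adjusted p = 0.768), and without wild type 3 it was -0.03. The gene has 9 probes, which share each array's RNA and so are no replicates of each other. All 9 were higher in the mutant on average, by 0.00 to 0.59, and all 9 were lowest on wild type 3. On slide 1 all 9 were lower in the mutant and on slide 2 all 9 were higher. A_12_P163128 varied over the arrays by 5.10 log2 units and the others by 1.34 to 1.82. One probe, A_12_P169389, carried an outlier flag and was left out of the test.

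**Figure D2:**
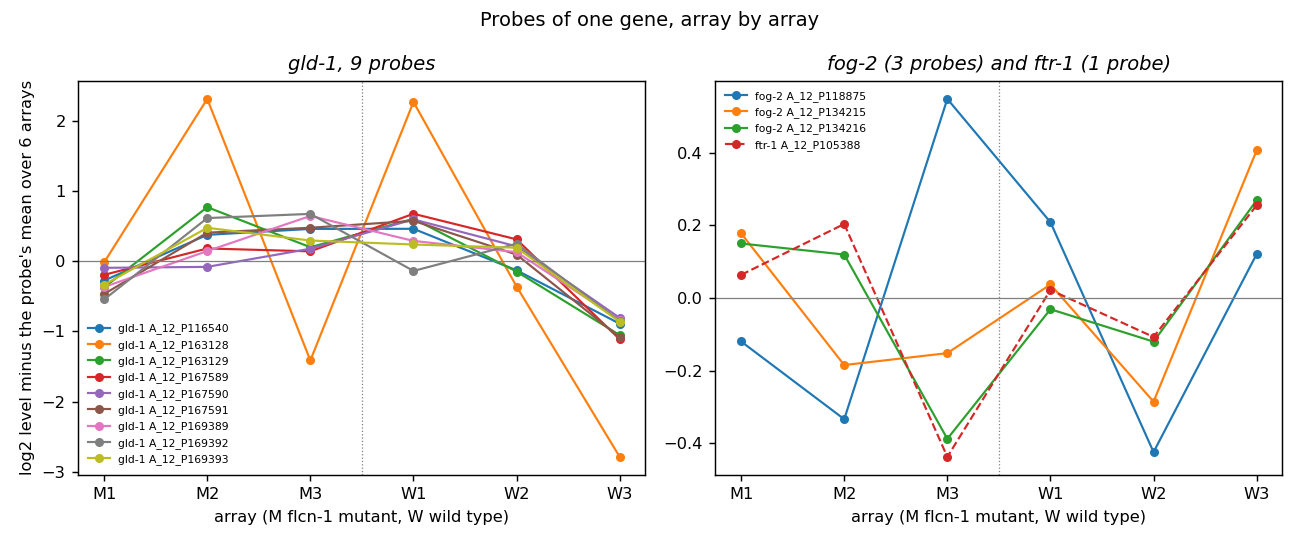
Log2 level of each probe minus its own mean over the 6 arrays (y axis) on mutants 1 to 3 (M) and wild types 1 to 3 (W), left for the 9 gld-1 probes and right for the 3 fog-2 probes with the ftr-1 probe (dashed). All gld-1 probes are lowest on wild type 3, one varies by 5.10 log2 units, and a fog-2 probe runs alongside ftr-1.

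The splicing factor gene mog-1, needed to end sperm production, varied least. It read 3.52, 3.94 and 3.73 on mutants 1, 2 and 3, against 3.60, 3.36 and 3.70 on wild types 1, 2 and 3. The 6 arrays spanned 0.58 log2 units and overlapped between strains. The difference of mog-1 was 0.17 ± 0.27 (SE; 95% interval -0.44 to 0.79, limma adjusted p = 0.817).

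The terminal regulators are fog-1 and fog-3, and neither passed the test. FOG-1, a relative of the cytoplasmic polyadenylation element binding proteins, was reported by 3 probes. The brightest read -0.04, 0.42 and 0.19 on mutants 1, 2 and 3, against 0.21, -0.39 and -0.22 on wild types 1, 2 and 3. Wild type 1 lay above mutants 1 and 3, and the other wild types lay below all mutants. The difference of fog-1 was 0.33 ± 0.29 (SE; 95% interval -0.34 to 0.99, limma adjusted p = 0.706). Its other probes differed by 0.45 (95% interval -0.27 to 1.16) and 0.56 (-0.15 to 1.26). All 3 were thus higher in the mutant on average, and none passed the test.

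FOG-3, a protein of the Tob and BTG family, was reported by a single dim probe, whose unnormalised median spot signal ranged from 320 to 780 over the arrays on a local background of 41 to 56. That probe of fog-3 read -2.90, -3.06 and -3.05 on mutants 1, 2 and 3, against -2.71, -2.32 and -1.44 on wild types 1, 2 and 3. The 3 mutants lay together and below every wild type array, while the wild types spread over more than 1 log2 unit. Means were -3.003 ± 0.090 in the mutant and -2.16 ± 0.65 in the wild type (SD, n = 3 each). The difference of fog-3 was -0.85 ± 0.36 (SE; 95% interval -1.67 to -0.03), or 1.80-fold higher in the wild type, with an unadjusted limma p of 0.0442 and an adjusted p of 0.65 over all features. Without wild type 3 it was -0.49 (adjusted p = 0.885), and over all alternatives it ranged from -1.18 to -0.19 with the same sign. In RNA of whole animals, fewer cells that express a gene cannot be told apart from less of its RNA per cell.

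**Figure D3:**
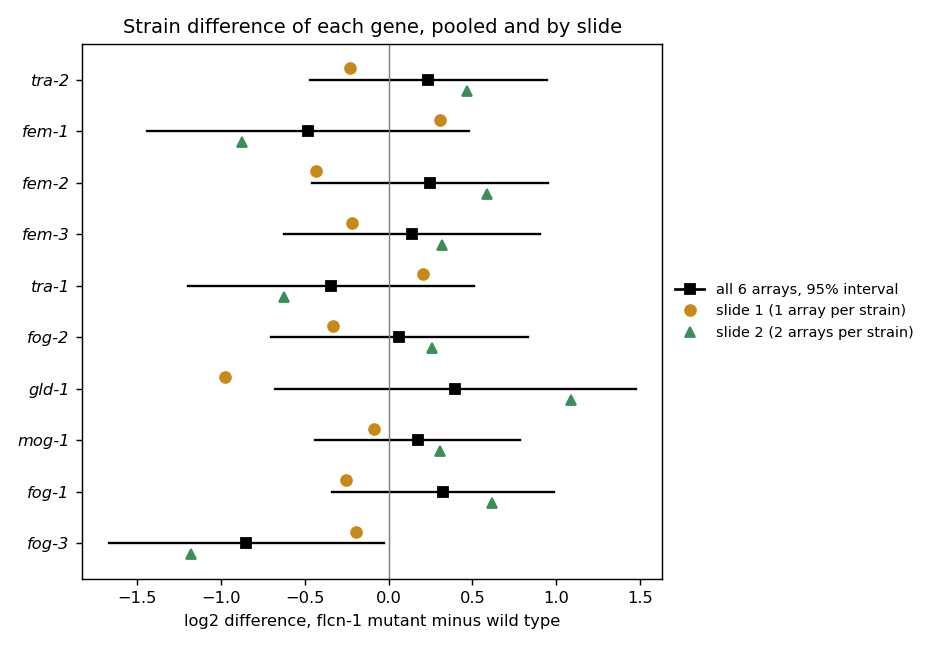
Log2 difference (x axis, flcn-1 mutant minus wild type) of each gene over all 6 arrays with its 95% interval (squares and lines), on slide 1 with 1 array per strain (circles) and on slide 2 with 2 (triangles). The interval of fog-3 ends at -0.03 before adjustment for multiple testing and those of the other 9 genes span 0; slide 1 and slide 2 lie on opposite sides of 0 in every row but fog-3.

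Within slides the directions did not agree. On slide 1 and slide 2 in turn, the differences were -0.23 and 0.47 for tra-2, 0.31 and -0.87 for fem-1, -0.43 and 0.59 for fem-2, and -0.22 and 0.32 for fem-3. They were 0.21 and -0.62 for tra-1, -0.33 and 0.26 for fog-2, -0.98 and 1.09 for gld-1, -0.08 and 0.30 for mog-1, and -0.25 and 0.61 for fog-1. Thus 9 of the 10 genes differed in opposite directions on the 2 slides, 7 of them lower in the mutant on slide 1 and higher on slide 2. Over all features tested, 49.1% differed in opposite directions, and 5050 of 19822 were lower on slide 1 and higher on slide 2. The gene fog-3 was lower in the mutant on both, by -0.19 on slide 1 and -1.18 on slide 2. On slide 1 each strain has 1 array, so its values have no replicate check, and on slide 2 the strain cannot be told apart from the wider variation between copies of a probe on mutants 2 and 3. With slide as a block in limma, fog-3 gave an adjusted p of 0.522 and 0 of the 10 genes changed.

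Genes that act on or beside these 10 were counted in lists. Of 8 genes upstream of tra-2, 0 passed the limma test over all features, and 6 were higher and 2 lower, with a median difference of 0.26 (0.17 without mutant 2, where all 8 were higher). The smallest p-values belonged to sex-1 (0.94), a nuclear receptor that counts X chromosomes, to fox-1 (0.86), an RNA-binding protein with the same task, and to sdc-3 (0.36), a factor of sex determination and dosage compensation. On slide 1 the differences of sex-1 and fox-1 were -0.03 and -0.18, so their size came from slide 2. Among 6 partners of the FEM proteins and of TRA-1, 0 passed, 4 were higher and 2 lower (median 0.27, and 0.09 without mutants 2 and 3). The transcription factor gene tra-4 read -5.40, -5.22 and -5.31 on mutants 1, 2 and 3, against -6.25, -5.68 and -5.94 on wild types 1, 2 and 3. Its arrays did not overlap between the strains, and 12.0% of all features lacked overlap in either direction. Its probe was dim, though well above background on all 6 arrays. On both slides tra-4 was higher in the mutant, by 0.86 and 0.54, with a difference of 0.65 (limma adjusted p = 0.65). The ligase subunit gene cul-2 and the histone deacetylase gene hda-1 differed by 0.58 and 0.27.

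RNA regulators of the sperm to oocyte decision included the FBF proteins, which silence fem-3, and GLD-3, which counters FBF. Of 15 listed, 14 were tested and 0 passed by limma, while 11 were higher and 3 lower, with a median difference of 0.38. Slide 1 gave a median of -0.34 and slide 2 one of 0.70, leaving out wild type 3 gave 0.15, mutant 2 gave 0.23 and mutant 1 gave 0.62, and leaving out mutants 2 and 3 turned it to -0.13, with 5 higher and 9 lower. The leading members were gld-3 (0.55), fbf-1 (0.42) and the proteasome subunit gene rpn-10 (0.45) (limma adjusted p = 0.652, 0.679 and 0.68). Levels of fbf-1 were higher in the mutant on both slides, by 0.46 and 0.40, and those of gld-3 were not, at -0.15 and 0.90. Of the other mog genes and their partners 6 of 7 were tested and 0 passed (median 0.18, with 4 higher; 0.06 without mutant 2, 0.08 without wild type 2, 0.31 without mutant 1 and 0.28 without wild type 1), led by cyn-4 (-0.51), mog-4 (0.33) and mog-3 (0.40). Of 5 germline MAP kinase genes 0 passed (median 0.19, with 4 higher). Slide 1 gave -0.29 and slide 2 gave 0.53, and the median was 0.04 without mutant 2, 0.12 without mutant 3 or without wild type 3, and 0.41 and 0.32 without mutant 1 and wild type 1. Without mutants 2 and 3 it turned to -0.19, with 1 higher and 4 lower. Those with the smallest p-values were lip-1 (0.69), a phosphatase that was well above background on 2 mutant arrays and 1 wild type array, and the kinases lin-45 (0.27) and mpk-1 (0.19).

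Targets of the pathway were examined next. Of 12 messengers known to be bound by GLD-1, besides tra-2, 0 passed by limma, and 11 were higher and 1 lower, with a median difference of 0.37. They were led by oma-1 (0.86), egg-2 (0.70) and egg-1 (0.58), which serve oocyte maturation and fertilisation. The gene oma-1 is also among the oocyte markers below, so the 2 lists are not separate observations. Slide 1 gave a median of -0.17, slide 2 gave 0.65, and leaving out mutants 2 and 3 gave 0.17. Of 6 somatic genes under TRA-1, mab-3 and dmd-3 were below the filter and 4 were tested, with 0 passing. The cell death gene egl-1 read -4.30, -3.74 and -3.80 on mutants 1, 2 and 3, against -4.81, -4.72 and -4.42 on wild types 1, 2 and 3. It was higher in the mutant without overlap, and 12.0% of all features lacked overlap in either direction. The difference of egl-1, by a dim probe, was 0.71 (limma adjusted p = 0.65), with 0.51 and 0.80 on slides 1 and 2. The homeobox gene ceh-30 and the forkhead gene fkh-6 differed by 0.09 and -0.05. 

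**Figure D4:**
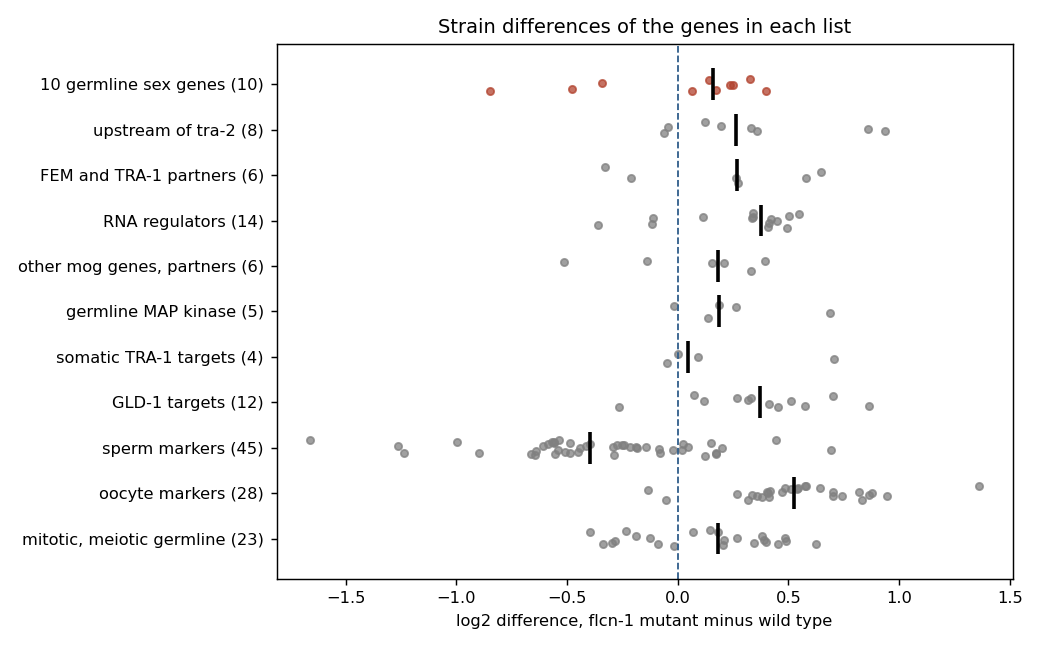
Log2 difference (x axis, flcn-1 mutant minus wild type) of every tested gene in each list (points, with vertical jitter and the number of genes in brackets), the list's median (bar) and the median of all features (dashed line). No gene shown passed the limma test over all features; sperm markers have a median of -0.40 and oocyte markers of 0.53.

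The products of the decision were followed by marker genes. Sperm and oocyte markers were present: spe-38 and msp-142 for sperm, and rme-2, oma-1 and oma-2 for oocytes, were well above background on all arrays. Of the 45 sperm markers tested, spe-9 among them, 44 had a probe well above background on all 6 arrays. The male markers pkd-2, lov-1 and cwp-1 and the embryo marker pes-10 were not well above background on any array. Other genes of those lists were well above background on 3 or more arrays. This held for 3 of 13 embryo genes, end-1 and end-3 among them, and for 4 of 13 male genes. On all 6 arrays this held for 1 embryo gene and 2 male genes. Markers of a list share each array's RNA and so are no replicates of each other. Sperm markers were lower in the mutant in 35 of 45 genes, against 49.7% of all features, with a median difference of -0.40. By limma 0 passed (6 lower and 0 higher at an unadjusted p of 0.05, against 4.34% and 2.90% of all features). The sperm genes spe-27 (-1.23), spe-38 (-0.996) and snf-10 (-0.90) had the smallest p-values. Their mean deviation from the genes' own 6-array means was -0.11, -0.21 and -0.22 on mutants 1, 2 and 3, against 0.29, 0.15 and 0.09 on wild types 1, 2 and 3. The summed signal of the sperm markers, in multiples of the 75th percentile, overlapped between the strains, at 909 to 999.5 on the mutants and 866 to 1424 on the wild types. The sperm median by slide was -0.50 and then -0.32, and it was -0.26 without mutants 2 and 3. Oocyte markers were higher in 26 of 28 genes, against 50.3% of all features, with a median of 0.53. By limma 0 of them passed (2 higher and 0 lower at an unadjusted p of 0.05, against 2.90% and 4.34% of all features). The smallest p-values were those of cav-1 (1.36), oma-1 (0.86) and zif-1 (0.94). Their mean deviation was -0.10, 0.49 and 0.43 on mutants 1, 2 and 3, against 0.10, -0.12 and -0.80 on wild types 1, 2 and 3, and the summed signal was 377 to 522 on the mutants and 246 to 497 on the wild types. The oocyte median by slide was -0.24 and then 0.90, and it was 0.13 without mutants 2 and 3. Both lists describe these libraries in a direction already known when the genes were chosen.

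Both fog-3 and the mean of the sperm markers were lower on every mutant array than on every wild type array, but their orders within the wild type differed. Sperm markers were highest on wild type 1, and fog-3 was highest on wild type 3. On wild type 3 gld-1 was at its lowest, oocyte markers deviated by -0.80 and the yolk genes by -0.98, the lowest score of each list. Without wild type 3 the median difference of the oocyte markers was 0.19. Of 5 yolk genes tested 0 passed by limma and 3 were higher, with a median of 0.41 over all arrays, -0.73 on slide 1 and 0.98 on slide 2. That median was 0.00 without wild type 3, 0.10 without mutant 2, 0.27 without wild type 2 and 0.80 without wild type 1. Of 13 listed genes of the early embryo 3 were bright enough to test, with 0 passing and a median of -0.36. That median turned to 0.20 without wild type 2. With normexp it was 0.16, against 0.18 over all features under that setting. Of 13 male genes 4 were tested, with 0 passing and a median of 0.15, which turned to -0.05 without mutant 1 and on slide 2, and ranged from there to 0.35 with each array left out. Mitotic and meiotic germline markers had a median of 0.18, with 14 of 23 higher and 0 passing by limma, but -0.01 with 11 higher and 12 lower both without wild type 3 and without mutants 2 and 3, 0.08 without mutant 3 and 0.11 without mutant 2. They were led by lag-1 (0.62), mes-4 (0.49) and nos-2 (0.39). The part of these markers in the values of fog-3 and gld-1 was not tested.

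**Figure D5:**
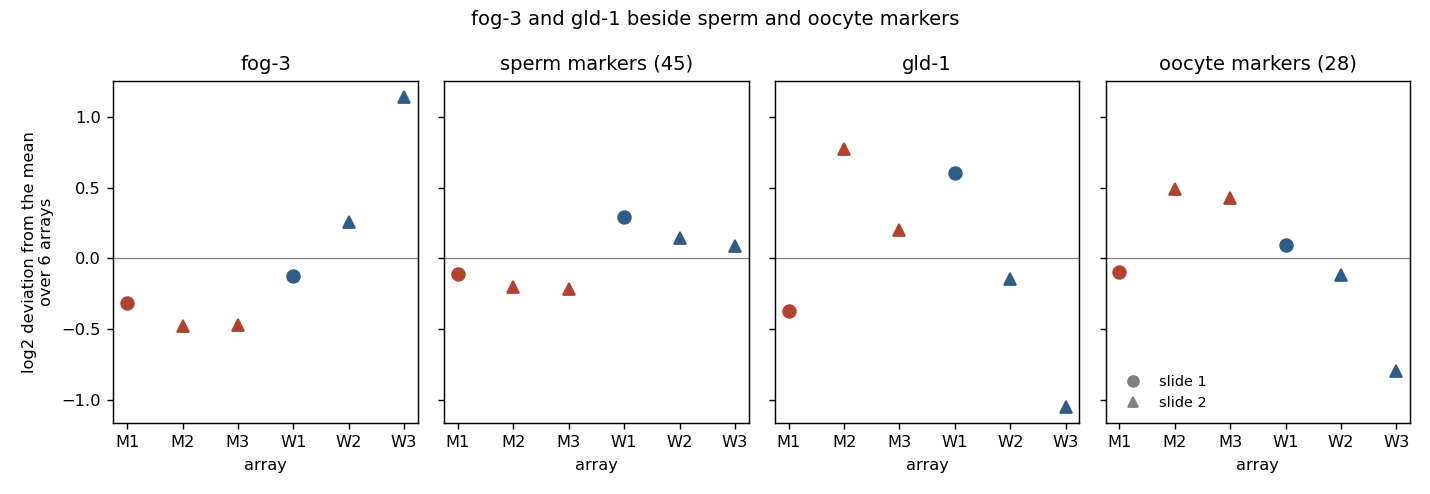
Log2 deviation from the mean over 6 arrays (y axis) of fog-3, of the mean of 45 sperm markers, of gld-1 and of the mean of 28 oocyte markers on mutants 1 to 3 (M) and wild types 1 to 3 (W); circles are slide 1 and triangles slide 2. On wild type 3 fog-3 is at its highest and gld-1 and the oocyte markers (-0.80) are at their lowest.

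The genes whose levels ran most closely with fog-3 over the 6 arrays were elo-4, dhs-14 and C55A6.11 (Pearson r of 0.996, 0.995 and 0.995), among 145 of 15545 genes with r above 0.95. For fog-1 they were C34F6.9, K08H2.4 and smgl-2 (r of 0.993, 0.992 and 0.991), among 57 such genes. With 6 arrays these likenesses describe the arrays and carry no test.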

How the data were processed

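Total RNA of 6 samples was labelled with Cy3 and hybridised to 1-colour Agilent arrays, per the labels. Per the file headers, intensity values were extracted with Feature Extraction 10.7.3.1 from arrays designed against build ce4 (WS170). The processed signal has a spatial background surface subtracted and a multiplicative surface divided out (not on mutant 2), and arrays were not normalized to each other. In the deposited series table the log2 values have medians of 7.61 to 7.62. How the authors made that table, and its scaling, are not given in these sources; its values are levels. No coordinates or sequences are given, since no sequence of the probes or genes was used here.

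Of 45220 spots per array, 1417 controls were left out. The remaining spots were averaged to 43603 probes, and 133 probes with an outlier flag were left out. No spot was saturated. Log2 processed signals minus each array's 75th percentile were analysed. Probes were kept (31236) if 3 or more arrays had them well above background, and the brightest probe stood for a gene. Names came from the gene table of assembly WBcel235: 30978 probes matched by sequence name, 3342 by accession, 1077 kept the file's sequence name and the others were unnamed. With limma 3.58.1 (R 4.3.3; two-sided moderated test, Benjamini-Hochberg adjustment), 19822 features were tested, 15546 of them named genes. The procedure was tested on simulated data with 200 changed features. It called 0.597% of those changed 2-fold, 42.1% of those changed 4-fold and 78.2% of those changed 8-fold. A gene that did not pass may therefore still differ. Single probes were fitted in the same way across all probes kept. No set test was run.

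The genes and lists were chosen with earlier results of these data known. Named genes are the 10, ftr-1, up to 3 per list with the smallest p, and 3 most like fog-1 and fog-3. Lists of embryo, male and yolk genes served as tissue markers. The replicate numbers did not pair the samples. Alternatives were another background correction, quantile and median scaling, other filters, the mean of probes, the series table, slide or replicate as a block, slides alone, array weights, and arrays left out.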

Additional observations from a re-analysis of the deposited data

How the results depend on the processing

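None of the 10 genes passed the limma threshold under any of the alternatives run, of which slide 1 alone allows no test. Of 190 differences under 19 settings per gene, 28 reversed, 118 moved and kept their sign, and 44 were equal to the reported value, since the filters, the blocks and, for genes with 1 probe, the mean of probes do not alter a difference. The lowest adjusted p was 0.297 (fog-3 on slide 2 alone). On slide 1 alone, tra-2 gave -0.23, fem-1 0.31, fem-2 -0.43, fem-3 -0.22, tra-1 0.21, fog-2 -0.33, gld-1 -0.98, mog-1 -0.084 and fog-1 -0.25. With normexp, fog-2 gave -0.20, fem-3 -0.050 and tra-1 0.39. Normexp moved the median of all features to 0.18, and 65.7% of features were then higher in the mutant, against 50.3%, so that relative to this shift tra-1 was higher and fog-2 and fem-3 lower. By the authors' deposited series table fog-2 gave -0.17, fem-3 -0.0090 and tra-1 0.17, and by the mean of its probes fog-2 gave -0.040. Some differences kept their sign but moved in size. The mean of probes gave fem-1 -0.14, tra-1 -0.065 and tra-2 0.097. Array weights gave fog-2 0.31, fem-3 0.38 and tra-1 -0.54, and normexp gave fog-3 -0.50 and fem-2 0.15. Without both mutant 2 and mutant 3, an alternative chosen after seeing the data, fog-2 gave -0.088, fem-1 0.086, fem-2 -0.13, tra-1 0.33, gld-1 -0.17 and mog-1 -0.036. When each array was left out in turn, fog-2 ranged from -0.20 to 0.25, fem-1 from -0.76 to 0.00019, fem-3 from -0.086 to 0.32, gld-1 from -0.029 to 0.80 and fog-3 from -1.12 to -0.49. Others kept their sign but moved by over 1.5 times: tra-2 was 0.037 without mutant 3, 0.056 without wild type 3 and 0.37 without wild type 1, fem-2 was 0.054 without mutant 2, 0.14 without wild type 3, 0.44 without mutant 1 and 0.40 without wild type 1, mog-1 was 0.069 without mutant 2, 0.078 without wild type 2 and 0.28 without mutant 1, tra-1 was -0.68 without mutant 1, -0.56 without wild type 3, -0.15 without mutant 3 and -0.19 without mutant 2 or without wild type 2, and fog-1 was 0.21 without mutant 2, 0.20 without wild type 2 and 0.50 without wild type 1. For all of these the cause was not tested. Over all features the count of 20 changed to 11 with normexp and to 1 under the filter that asks for 6 arrays well above background, where probes lost in a strain are not tested, and was 17 to 20 with each array left out. The replicate block gave 30 calls, 17 of them among the 20, and fog-3 an adjusted p of 0.546. Deviations of same-numbered arrays correlated at 0.12, 0.12 and 0.02, so the numbers were not taken as pairs, and 1 of 3 mutants correlated best with its own number. The dimmest brightest probes were those of tra-1 and fog-3, with median spot signals of 195 to 304 and 320 to 780.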

Other observations

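Relations between members were examined within arrays, after their values were seen, by exact two-sided permutation tests, whose smallest possible p with 3 arrays per strain is 0.1. The log2 level of fem-3 minus that of tra-2, whose products act against each other, was 2.23, 1.94 and 2.14 on mutants 1, 2 and 3, against 2.22, 1.65 and 2.73 on wild types 1, 2 and 3. The strains overlapped, with a difference of -0.10 (exact permutation p = 0.8, adjusted p = 0.8 over 3 relations). The level of fog-3 minus that of tra-1, its repressor, differed by -0.50 (exact permutation p = 0.6, adjusted p = 0.8). The level of fog-3 minus that of fog-1 was -2.86, -3.48 and -3.24 on the mutants, against -2.92, -1.93 and -1.21 on the wild types, a difference of -1.17 (exact permutation p = 0.2, adjusted p = 0.6). That difference was 0.06 on slide 1 and -1.79 on slide 2. These values show unequal differences of the probes, not which gene changed.

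Among the 10 genes, mutant 2 held the highest level for 4 and the lowest for 2, and wild type 2 held the lowest for 4 and the highest for 0. Wild type 1 held neither extreme for any of them.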
